A study of Arabidopsis thaliana with 15 samples.

Results

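Cysteine-rich receptor-like kinases (CRKs) are a large family of plant membrane proteins, and their transcripts were examined here across Arabidopsis thaliana seedlings of 5 groups. The family was taken as the 41 loci named CRK1 to CRK42, CRK35 not being included, out of 32548 genes in the deposited table. Of these 41 genes, 39 reached a mean of at least 1 normalised read in at least 1 group and were tested, all of them also by their wild-type level alone. CRK1 (AT1G19090) and CRK33 (AT4G11490) were listed at 0 in all 15 libraries.

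The study sequenced RNA of seedlings kept for 11 days on Murashige and Skoog plates (22 °C, 16 h light, 8 h dark), in 3 libraries per group. The group obe1-2 carried obe1-/- and obe2-/-, mutations of the OBERON genes, whose products hold a PHD finger, a domain known for binding histone tails. The group wrky-qm carried mutations on both copies of WRKY7, WRKY11, WRKY17, WRKY21 and WRKY39, genes of WRKY transcription factors, and wrky-qm_15_hz carried the same 5 with WRKY15 mutated on a single copy. Col-0_2 and Col-0_1 were 2 sets of wild-type seedlings, and all groups were of the ecotype Col-0. The labels give neither the mutant alleles' molecular nature nor how many seedlings made a library, and they do not say that libraries came from separate cultures, so a p-value here reflects only how far these libraries spread, and that spread may be technical.

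A typical CRK has an outer part with DUF26 domains, which hold a conserved pattern of cysteines, then a membrane-spanning segment and a protein kinase inside the cell. CRKs are known for roles in immunity, in responses to reactive oxygen species and in abscisic acid signalling, and many are induced by pathogens or salicylic acid. Many CRK genes stand side by side on chromosome 4, an arrangement typical of genes copied in tandem. WRKY factors bind the W-box, a short DNA element common in the promoters of immune genes.

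All sequences and positions below are from the RefSeq annotation of the assembly TAIR10.1, joined by locus, since the deposited table holds no coordinates and its notes name TAIR10. All 41 loci matched, 38 of them under the CRK symbol. The RefSeq symbols of CRK1, CRK9 and CRK17 are RKF2, EP1 and EMB1290. The 300 bases before the annotated start of each gene were searched for TTGACC and TTGACT, the core of the W-box, on both strands. A W-box stood in 26 of the 41 CRK windows, 63.4%, and in 8855 of the 27443 windows of protein-coding genes in the table, 32.3%. At least 2 W-boxes stood in 34.2% of CRK windows and in 7.91% of all. The windows of 7 genes are printed 5′ to 3′ on the gene's strand, with W-boxes in capitals. None of these windows overlaps an exon of another gene. The windows of CRK19, CRK21, CRK22 and CRK30, on which the results also turn, are not printed and hold no W-box.

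The first pair is CRK10 (AT4G23180), the most abundant member in wrky-qm, at chr4:12137695-12137994 on the plus strand, and its neighbour CRK11 (AT4G23190), which rose in every mutant, at chr4:12143859-12144158 on the minus strand. The CRK10 window holds no W-box and the CRK11 window holds 4.
CRK10: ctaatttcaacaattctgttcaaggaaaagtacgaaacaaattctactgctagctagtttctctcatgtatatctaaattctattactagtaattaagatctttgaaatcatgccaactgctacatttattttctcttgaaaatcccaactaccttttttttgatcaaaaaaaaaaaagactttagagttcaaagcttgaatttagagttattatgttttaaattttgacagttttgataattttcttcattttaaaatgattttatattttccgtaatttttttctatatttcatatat
CRK11: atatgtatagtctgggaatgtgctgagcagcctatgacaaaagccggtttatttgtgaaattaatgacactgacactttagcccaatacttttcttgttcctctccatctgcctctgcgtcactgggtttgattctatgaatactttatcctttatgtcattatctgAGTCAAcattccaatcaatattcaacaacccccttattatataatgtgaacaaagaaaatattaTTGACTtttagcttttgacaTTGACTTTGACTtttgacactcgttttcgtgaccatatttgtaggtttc

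CRK4 (AT3G45860), at chr3:16866262-16866561 on the minus strand with 2 W-boxes, and CRK38 (AT4G04510), at chr4:2241772-2242071 on the plus strand with 1, had the largest rises in obe1-2 on the scale of log2(value + 1). The 2 W-boxes of CRK4 lie in a repeated stretch.
CRK4: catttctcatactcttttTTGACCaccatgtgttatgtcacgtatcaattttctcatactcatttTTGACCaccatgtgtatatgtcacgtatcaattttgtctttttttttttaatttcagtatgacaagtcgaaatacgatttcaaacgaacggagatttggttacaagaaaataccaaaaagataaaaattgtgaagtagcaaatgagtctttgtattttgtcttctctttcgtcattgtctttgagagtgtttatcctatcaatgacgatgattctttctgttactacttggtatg
CRK38: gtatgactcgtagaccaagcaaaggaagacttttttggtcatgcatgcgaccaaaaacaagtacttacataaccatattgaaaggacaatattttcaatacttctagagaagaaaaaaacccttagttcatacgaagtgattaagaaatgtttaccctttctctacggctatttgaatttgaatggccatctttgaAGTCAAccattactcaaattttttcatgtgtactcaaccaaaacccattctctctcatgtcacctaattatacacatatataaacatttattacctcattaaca

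CRK5 (AT4G23130), at chr4:12120221-12120520 on the minus strand with 4 W-boxes, differed between the wild-type sets. CRK7 (AT4G23150), at chr4:12125364-12125663 on the plus strand with none, was listed at 0 in wrky-qm. CRK42 (AT5G40380), at chr5:16151222-16151521 on the plus strand with 1, fell in obe1-2 and wrky-qm_15_hz.
CRK5: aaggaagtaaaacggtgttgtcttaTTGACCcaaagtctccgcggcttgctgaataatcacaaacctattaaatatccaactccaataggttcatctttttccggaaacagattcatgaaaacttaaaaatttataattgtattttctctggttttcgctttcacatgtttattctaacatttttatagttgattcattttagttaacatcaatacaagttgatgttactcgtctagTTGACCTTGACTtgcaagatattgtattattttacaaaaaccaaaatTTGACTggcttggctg
CRK7: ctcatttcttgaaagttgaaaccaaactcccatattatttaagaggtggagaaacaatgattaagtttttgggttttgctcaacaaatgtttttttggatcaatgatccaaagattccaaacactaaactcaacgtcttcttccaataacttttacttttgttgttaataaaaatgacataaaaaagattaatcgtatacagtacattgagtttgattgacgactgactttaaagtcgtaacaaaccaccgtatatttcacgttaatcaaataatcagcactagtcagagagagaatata
CRK42: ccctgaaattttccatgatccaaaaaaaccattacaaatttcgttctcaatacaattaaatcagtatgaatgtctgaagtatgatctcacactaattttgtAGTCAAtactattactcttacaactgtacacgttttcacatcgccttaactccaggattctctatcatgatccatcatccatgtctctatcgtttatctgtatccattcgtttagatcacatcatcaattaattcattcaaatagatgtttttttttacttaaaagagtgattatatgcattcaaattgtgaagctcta

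Of the members that rose in obe1-2, 63.6% had a W-box, beside 38.4% of all protein-coding genes that rose there. All 3 members that fell had one, as did 66.7% of the 3 not called. In wrky-qm_15_hz the share was 61.8% of members that rose, beside 39.0% of all risen protein-coding genes. There it was 100% of the 2 members that fell and 100% of the 3 not called. In wrky-qm it was 60.0% of members that rose, 60.0% of the 5 that fell and 73.7% of those not called, beside 39.1%, 27.7% and 31.7% of all protein-coding genes. In no mutant did the risen members exceed the other tested members in this share. These matches describe letters only, and sequence outside the window was not searched.

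Facts of the libraries bear on all that follows. The deposited values summed to between 44049333 and 49934976 normalised reads per library, and the median coefficient of variation between the libraries of a group was 3.72% to 4.82% for genes averaging at least 1000. OBE1 stood at 11.1 ± 4.66 in obe1-2, against 2546 ± 109 in Col-0_2 and 2194 ± 161 in Col-0_1 (SD, n = 3 each). WRKY17 was lower in wrky-qm than in wild type but WRKY7 and WRKY11 were higher. Of the 8 genes mutated in any of the mutants, 5 rose and 3 fell in wrky-qm. These levels thus cannot serve as a check on which library is a WRKY mutant, and each direction below is for libraries as labelled. Zeros were stored mostly as tiny values in wrky-qm and Col-0_1 and as exact 0 in obe1-2, wrky-qm_15_hz and Col-0_2. No label names a batch, so each mutant is also set against the wild-type set stored alike. Seed storage transcripts, summed over 9 genes, stood at 97.5 to 136 in obe1-2, 38240 to 41356 in wrky-qm_15_hz, 9278 to 9629 in wrky-qm, 370 to 478 in Col-0_2 and 20.9 to 24.2 in Col-0_1, with 2, 0, 1, 3 and 5 of the 9 genes at 0. Green tissue markers fell in 9 of 9 cases in obe1-2, in 7 of 9 in wrky-qm_15_hz and in 0 of 9 in wrky-qm, where 2 rose. Their sums were 811597 to 874053, 1491810 to 1579510 and 2372330 to 2381590, against 2213760 to 2266220 in Col-0_2 and 2203120 to 2390840 in Col-0_1. Root markers fell in 6, 7 and 4 of 8 cases in these mutants and rose in 1, 1 and 0. Their sums were 3753 to 4016, 2937 to 3194 and 3910 to 4021, against 5511 to 5919 and 5540 to 5790 in those wild-type sets. The root stem cell gene PLT2 was at 0 in obe1-2 and wrky-qm_15_hz. Senescence markers rose in 4 of 4 tested cases in obe1-2 and in wrky-qm_15_hz and in 1 in wrky-qm, where 2 fell, and SAG12, a late senescence gene, was listed at 0 in all 4 groups other than Col-0_2. Touch and handling transcripts rose in 2, 3 and 3 of 3 genes in these mutants, with sums of 11564 to 12133, 17017 to 19394 and 10354 to 11069. Of all genes tested, 29.2%, 26.5% and 15.5% rose and 32.5%, 27.4% and 11.4% fell in obe1-2, wrky-qm_15_hz and wrky-qm. The part of these tissue, stage and handling markers in the CRK results was not tested, and in RNA of seedlings fewer cells of a type and less RNA per cell cannot be told apart.

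The family as a whole was most abundant in obe1-2. Summed over the 41 genes, CRK transcripts stood at 84797 ± 332 normalised reads in obe1-2, 59304 ± 1620 in wrky-qm_15_hz and 36633 ± 541 in wrky-qm, against 19704 ± 547 in Col-0_2 and 17611 ± 344 in Col-0_1 (SD, n = 3 each). No library of 1 group overlapped with another in this sum. A few members supplied most of these reads, and which members led differed between groups. Per kilobase of exon, CRK22 led in obe1-2 at 5769 ± 105 and in wrky-qm_15_hz at 3258 ± 105, whereas CRK10 led in wrky-qm at 3739 ± 25.3. In Col-0_2 the leader was CRK19 at 771 ± 61.0, followed by CRK3 at 682 ± 11.98, and in Col-0_1 it was CRK21 at 950 ± 23.1. CRK22 alone made up 17.7% ± 0.391 of family reads in obe1-2, and CRK10 made up 26.0% ± 0.224 in wrky-qm. At the other end, CRK23, CRK39, CRK37, CRK8, CRK32 and CRK7 averaged under 50 normalised reads over the 15 libraries, beside the 2 genes listed at 0.

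**Figure D1:**
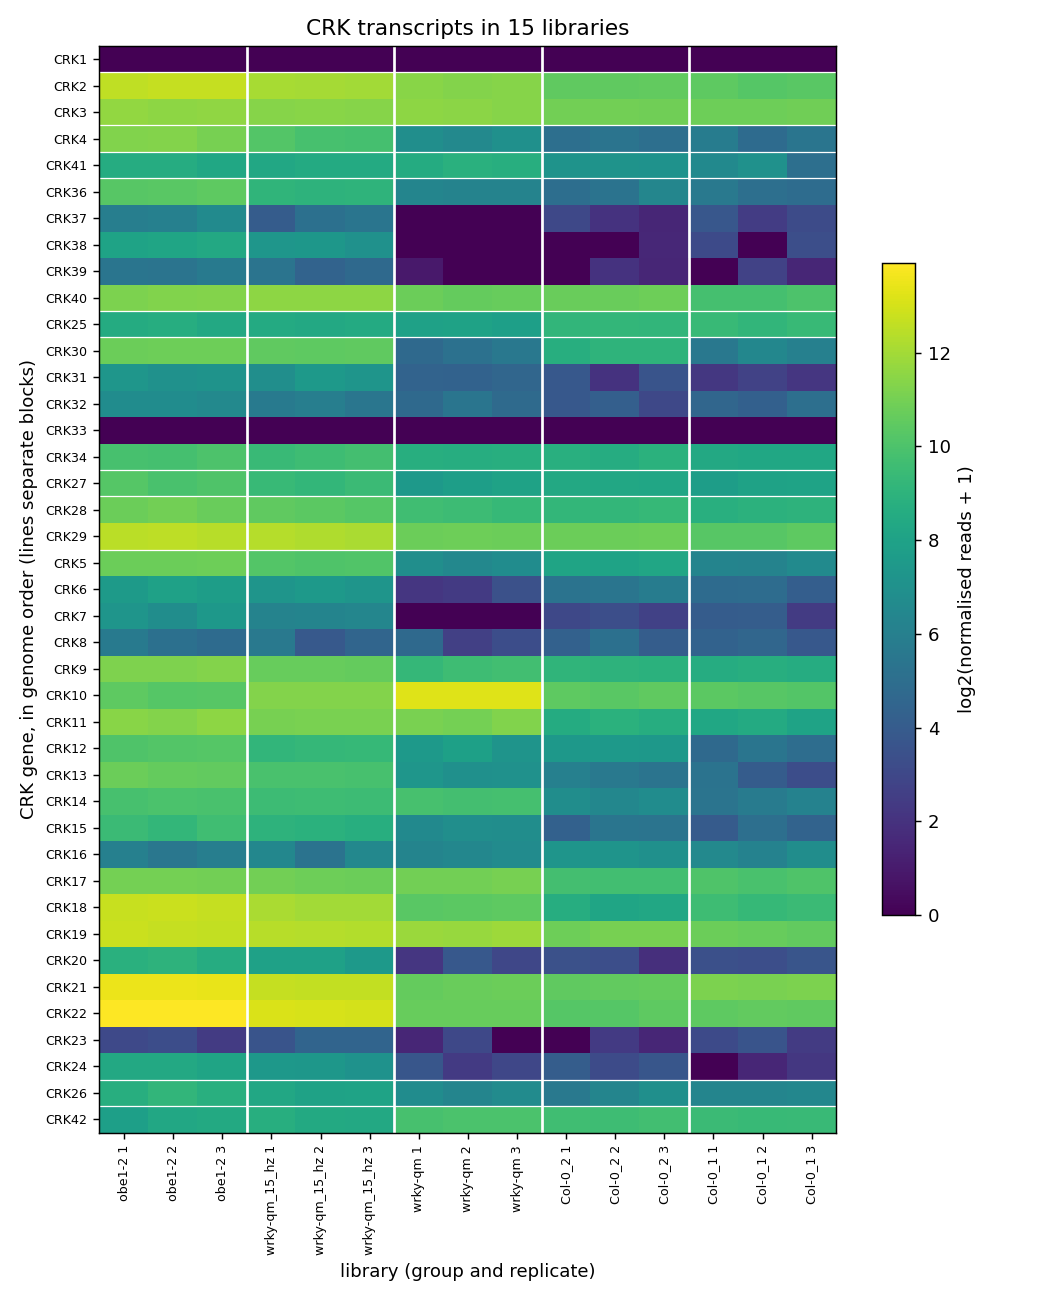
Level of each of the 41 CRK genes (rows, in genome order, white lines between blocks of neighbouring genes) in each of the 15 libraries (columns, 3 per group), as log2(normalised reads + 1). CRK22 and CRK21 are brightest in obe1-2, CRK10 is brightest in wrky-qm, and CRK1 and CRK33 are at 0 throughout.

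Of the predicted proteins, 37 of 41 hold 2 copies of the C-X8-C-X2-C cysteine motif that marks DUF26, and 36 are 600 to 700 residues long. CRK24 and CRK27 hold 1 copy of the motif, CRK23 holds 3 and CRK17 holds 4. Outside the range of lengths lie CRK9 with 265 residues, CRK24 with 528, CRK23 with 830, CRK17 with 1001 and CRK8 with 1043. The triplet HRD or HCD of the kinase catalytic loop was found in 37 members and not in CRK1, CRK8, CRK9 and CRK22. CRK22, the most abundant member over all libraries, is therefore among the 4 without this triplet in its RefSeq protein. Some read counts are shared or uncertain. CRK13 and CRK22 carry a near-identical stretch (at least 95% over at least 100 bases) covering 31.4% and 31.7% of their exons, so their reads could be split between them, and 4.65% of CRK40 is near-identical to AT4G04560. The annotated ends of CRK10 and CRK11, on opposite strands, overlap, as do CRK16 with CRK17 and CRK28 with CRK29 on the same strand, and 9 members overlap some other gene. The strandedness of the counting is not given in the sources used here.

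In obe1-2, nearly the whole tested family was higher than in wild type. Of 39 members tested, 33 rose and 3 fell by limma's test against both wild-type sets (adjusted p under 0.05), where 61.7% of all 25085 genes tested changed, 29.2% rising and 32.5% falling. The median log2 fold change of the 39 members was 2.61, beside -0.08 over all genes tested. Log2 fold changes are differences of log2(value + 1) from the mean of both sets, given ± SE, and they understate the change of low genes. All 33 members that rose had every obe1-2 library above all 6 wild-type libraries. How many of all genes called were separated in this way was not counted, so this is not shown to be particular to the family.

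CRK38 had the largest rise, with a level of 269.9, 284 and 329.8 normalised reads in obe1-2, 159, 163 and 128 in wrky-qm_15_hz and 0, 0 and 0 in wrky-qm, against 0, 0.00275 and 1.89 in Col-0_2 and 7.65, 0 and 9.29 in Col-0_1. It was nearly undetected in wild type and listed at 0 in wrky-qm, while the other mutants lay far above both. Its log2 fold change was 6.87 ± 0.56 in obe1-2 (limma adjusted p = 4.30e-08). With wild-type values this near 0, the size and rank of this rise depend on the pseudocount, the 1 added to each value. CRK4, whose overexpression is known to cause cell death in leaves, stood at 2503, 2578 and 2160.2 in obe1-2, 1148, 942 and 905 in wrky-qm_15_hz and 114, 91.01 and 125 in wrky-qm, against 32.96, 39.6 and 32.3 in Col-0_2 and 55.4, 28.2 and 41.03 in Col-0_1. The 3 mutants formed steps, with obe1-2 highest and no mutant library within the wild-type range. The log2 fold change of CRK4 in obe1-2 was 5.97 ± 0.17 (limma adjusted p = 1.40e-16).

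CRK24 (AT4G23320) encodes a shorter protein, in which a single DUF26 motif was found. It reached 329.8, 335 and 275 normalised reads in obe1-2, 172, 161 and 133 in wrky-qm_15_hz and 12.3, 4.12 and 6.74 in wrky-qm, against 15.98, 8.17 and 12.02 in Col-0_2 and 0, 1.84 and 3.73 in Col-0_1. Its wrky-qm libraries overlapped with those of Col-0_2, and those of the other mutants lay above. The log2 fold change was 5.84 ± 0.41 in obe1-2 (limma adjusted p = 2.26e-08). CRK13 (AT4G23210), whose overexpression is known to raise salicylic acid and resistance to bacteria, had 1749, 1579 and 1519.8 in obe1-2, 966, 960.3 and 929 in wrky-qm_15_hz and 159, 127 and 130.2 in wrky-qm, against 65.9, 48.8 and 39.5 in Col-0_2 and 38.4, 15.5 and 8.68 in Col-0_1. All 3 mutants lay above both wild-type sets, with a log2 fold change of 5.71 ± 0.27 in obe1-2 (limma adjusted p = 7.31e-12). The reads of CRK13 and CRK22 may be shared, as stated above.

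The most abundant members rose as well. CRK22 (AT4G23300) had 14829.9, 14889 and 15328 normalised reads in obe1-2, 8773, 8440.4 and 8230.2 in wrky-qm_15_hz and 1629.7, 1653 and 1635 in wrky-qm, against 1228, 1212 and 1379.5 in Col-0_2 and 1429, 1516 and 1478 in Col-0_1. CRK21 (AT4G23290) had 11477, 11393 and 10963 in obe1-2, 6554, 6278 and 6276 in wrky-qm_15_hz and 1573, 1700.1 and 1755 in wrky-qm, against 1437, 1531 and 1579 in Col-0_2 and 2283, 2193 and 2293 in Col-0_1. For both genes obe1-2 lay above wrky-qm_15_hz and the other groups lay far lower, with log2 fold changes in obe1-2 of 3.45 ± 0.04 for CRK22 and 2.61 ± 0.04 for CRK21 (limma adjusted p = 8.24e-23 and 2.80e-20). CRK19 (AT4G23270), known to cause cell death when overexpressed, had 7018, 6463 and 6431 in obe1-2, 5352, 5330.4 and 5058 in wrky-qm_15_hz and 3557, 3456 and 3787 in wrky-qm, against 1836, 2123 and 2101 in Col-0_2 and 1764, 1659.8 and 1518 in Col-0_1. Each mutant lay above both wild-type sets, and the log2 fold change in obe1-2 was 1.86 ± 0.05 (limma adjusted p = 3.51e-16).

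CRK18 (AT4G23260) had 6879.5, 7027 and 6519.7 normalised reads in obe1-2, 4574, 4074 and 3963 in wrky-qm_15_hz and 1309.7, 1358 and 1396 in wrky-qm, against 399.6, 293 and 319 in Col-0_2 and 755, 632 and 723 in Col-0_1. The mutants lay above both wild-type sets, which themselves did not overlap, and the log2 fold change in obe1-2 was 3.81 ± 0.08 (limma adjusted p = 3.08e-18). CRK2 (AT1G70520), which is known to phosphorylate the NADPH oxidase RBOHD and to act in salt tolerance, had 6079.7, 6537 and 6514 in obe1-2, 4267, 4226 and 4091 in wrky-qm_15_hz and 2769, 2523 and 2682 in wrky-qm, against 1477, 1473 and 1530.0 in Col-0_2 and 1398, 1228 and 1318 in Col-0_1. The 3 mutants stood apart from each other as well as from wild type, with a log2 fold change of 2.19 ± 0.04 in obe1-2 (limma adjusted p = 6.07e-19). Its neighbour CRK3 rose less, by 0.71 ± 0.04 in obe1-2 on the log2 scale (limma adjusted p = 3.85e-11).

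Members that fell were few. CRK42 had 226, 319 and 345 normalised reads in obe1-2, 417, 347 and 339.5 in wrky-qm_15_hz and 943, 1003 and 993 in wrky-qm, against 794, 770.0 and 827 in Col-0_2 and 703, 658 and 683 in Col-0_1. CRK25 (AT4G05200) had 373, 401 and 341 in obe1-2, 358, 329 and 366 in wrky-qm_15_hz and 251, 256 and 229 in wrky-qm, against 558, 579 and 573 in Col-0_2 and 661, 578 and 658 in Col-0_1. The CRK42 libraries of obe1-2 and wrky-qm_15_hz lay below wild type and those of wrky-qm above it, while CRK25 lay below wild type in all 3 mutants. The log2 fold changes in obe1-2 were -1.33 ± 0.10 for CRK42 and -0.69 ± 0.09 for CRK25 (limma adjusted p = 8.38e-09 and 1.05e-05). CRK16 (AT4G23240) had 64.5, 43.99 and 61.3 in obe1-2, 85.3, 38.8 and 87.5 in wrky-qm_15_hz and 77.1, 85.8 and 103 in wrky-qm, against 149.8, 147 and 124 in Col-0_2 and 93.1, 71.4 and 114 in Col-0_1. Only the obe1-2 libraries of CRK16 lay wholly below wild type among the mutants, at a log2 fold change of -1.003 ± 0.25 (limma adjusted p = 0.0441), and this call was lost after quantile normalisation (-0.21), with no filter on low values (-1.003) and in 7 of the 9 fits that left out 1 library, all but those without Col-0_1 replicate 2 and without obe1-2 replicate 1. CRK10, CRK8 and CRK23 did not pass in obe1-2, with log2 fold changes of -0.03 ± 0.05, 0.84 ± 0.45 and 0.76 ± 0.59.

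Against Col-0_2 alone, the wild-type set whose zeros were stored alike, 34 members rose and 3 fell in obe1-2, beside 32.2% and 36.1% of all genes tested, with a median of 2.60 for the members.

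**Figure D2:**
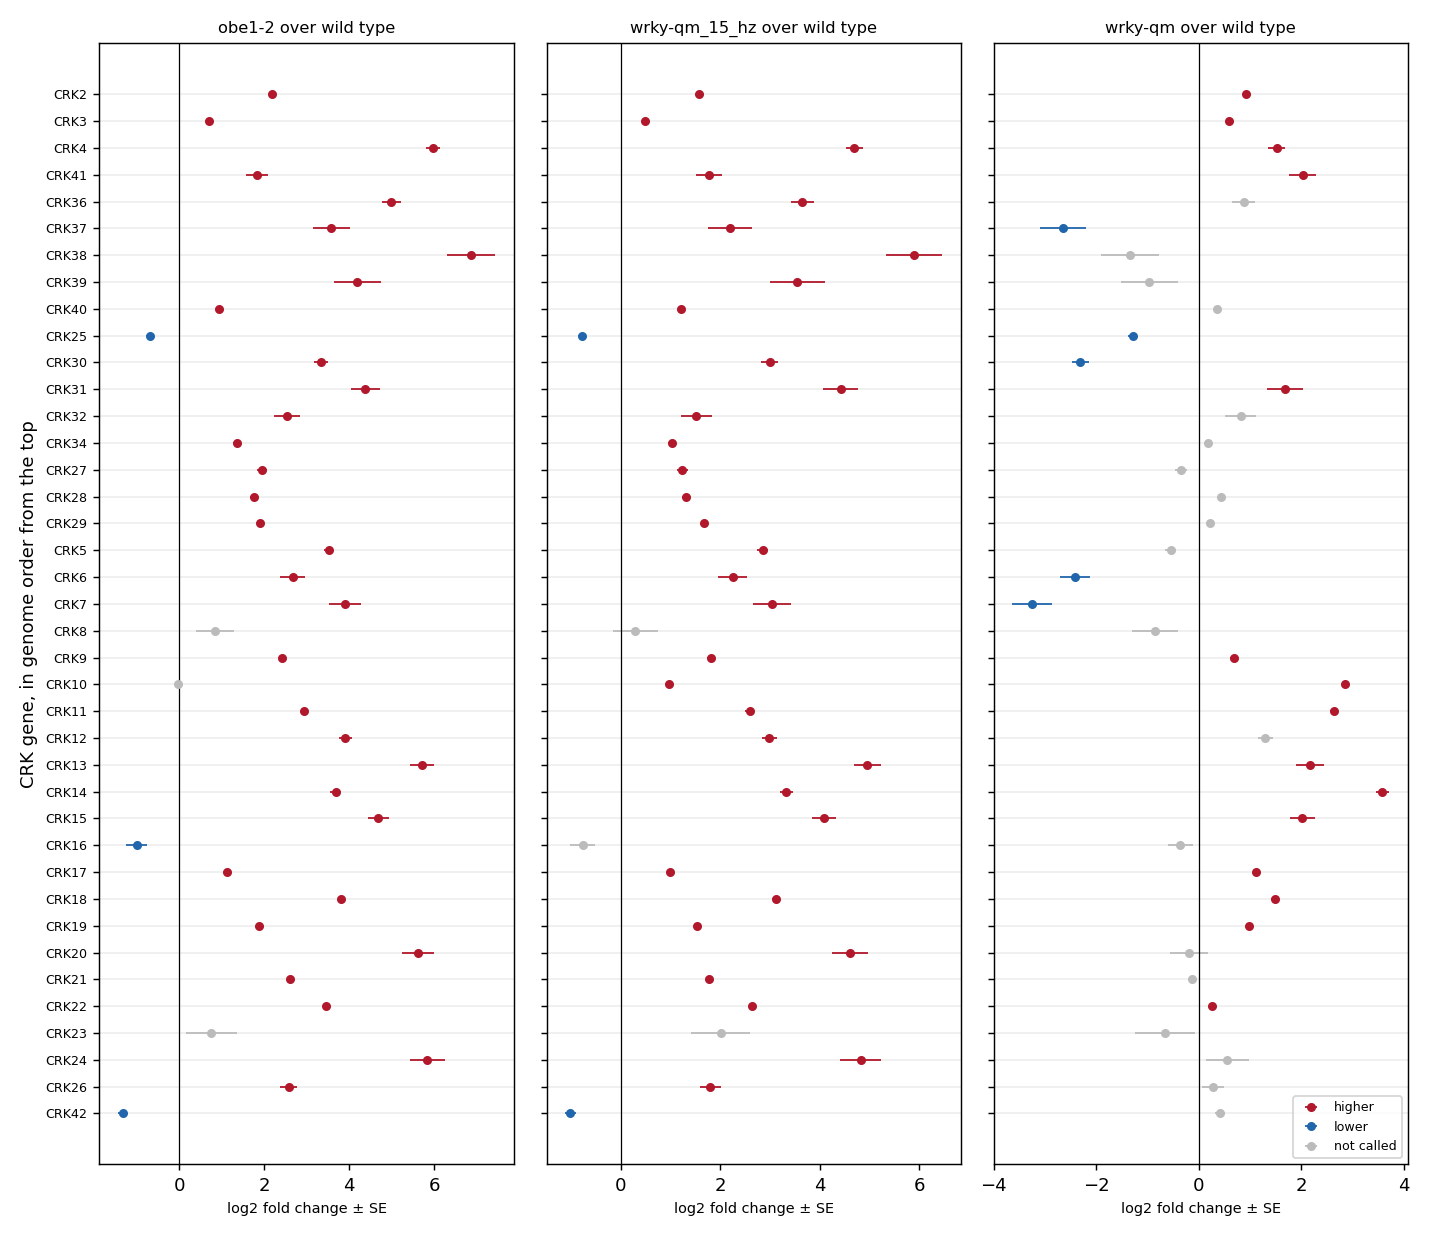
Log2 fold change ± SE of the 39 tested CRK genes over the mean of Col-0_2 and Col-0_1, in obe1-2, wrky-qm_15_hz and wrky-qm. Rises prevail in obe1-2 (33 of 39) and wrky-qm_15_hz (34 of 39), while wrky-qm has 15 rises and 5 falls. CRK7, CRK37 and CRK38 are listed at 0 in wrky-qm, so their positions there rest on the pseudocount. CRK38 is near 0 in wild type, so the size of its rises in obe1-2 and wrky-qm_15_hz depends on the pseudocount too.

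In wrky-qm_15_hz the family was higher than in wild type in nearly the same numbers. Of 39 members, 34 rose and 2 fell, where 54.0% of all genes tested changed, 26.5% rising and 27.4% falling. The median log2 fold change of the members was 2.01, beside -0.04 over all genes tested. All 34 risen members had every mutant library above all 6 wild-type libraries, a separation not counted over all genes. The 4 largest rises were of CRK38 at 5.89 ± 0.56, CRK13 at 4.95 ± 0.27, CRK24 at 4.82 ± 0.41 and CRK4 at 4.70 ± 0.17 (largest limma adjusted p of these 4 = 1.29e-06). The order depends on the pseudocount, since CRK38 was near 0 in wild type. The 2 that fell were CRK42 at -1.01 ± 0.10 and CRK25 at -0.77 ± 0.09 (limma adjusted p = 1.30e-06 and 2.92e-06). CRK8, CRK16 and CRK23 did not pass, with log2 fold changes of 0.30 ± 0.45, -0.76 ± 0.25 and 2.01 ± 0.59, and the call of CRK32 was lost without Col-0_1 replicate 2 and without wrky-qm_15_hz replicate 2. Against Col-0_2 alone 35 members rose and 3 fell, beside 29.9% and 31.3% of all genes tested, with a median of 1.83 for the members. The sum of seed storage transcripts was highest in this group, as given above.

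In wrky-qm the members moved in both directions. Of 39 members, 15 rose and 5 fell, where 26.9% of all genes tested changed, 15.5% rising and 11.4% falling, and the median log2 fold change was 0.41, beside 0 over all genes tested. This median and those against wrky-qm below include CRK7, CRK37 and CRK38, listed at 0 in wrky-qm, whose fitted values rest on the pseudocount. All 15 that rose and all 5 that fell were separated from the 6 wild-type libraries, again without a count over all genes. Against Col-0_1 alone, the set stored alike, 24 members rose and 7 fell, beside 22.0% and 18.4% of all genes tested (40.4% in either direction), with a median of 0.52. Against Col-0_2 alone 20 rose and 7 fell, beside 22.7% and 19.4% of all genes tested, with a median of 0.24. The count in wrky-qm thus depended on the wild-type set more than those of the other mutants.

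CRK10, a gene whose gain-of-function allele is known to dwarf the plant and alter its xylem, was far more abundant in wrky-qm than in any other group. Its level was 1400.3, 1208 and 1275 normalised reads in obe1-2, 2574, 2610.2 and 2553 in wrky-qm_15_hz and 9475, 9477 and 9587 in wrky-qm, against 1382, 1298 and 1478 in Col-0_2 and 1370.0, 1232 and 1161 in Col-0_1. The obe1-2 libraries lay among those of wild type, those of wrky-qm_15_hz lay above, and those of wrky-qm lay higher again. The log2 fold change was 2.85 ± 0.05 in wrky-qm (limma adjusted p = 1.81e-18) and 0.97 ± 0.05 in wrky-qm_15_hz (limma adjusted p = 6.28e-11).

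CRK11, which lies tail to tail with CRK10, had 2735, 2583 and 2957 normalised reads in obe1-2, 2112, 2208 and 2184 in wrky-qm_15_hz and 2200.2, 2059 and 2469.7 in wrky-qm, against 378, 468 and 411 in Col-0_2 and 308, 360.2 and 265 in Col-0_1. CRK14 (AT4G23220) had 922, 996 and 945 in obe1-2, 746, 759 and 735 in wrky-qm_15_hz and 911, 864 and 891 in wrky-qm, against 111, 86.5 and 106 in Col-0_2 and 39.6, 54.5 and 70.8 in Col-0_1. For both genes every mutant library lay well above wild type, and the mutants lay close to each other. The log2 fold changes in wrky-qm were 3.58 ± 0.13 for CRK14, the largest of the family there, and 2.64 ± 0.08 for CRK11 (limma adjusted p = 4.79e-13 and 1.55e-14). CRK13 followed at 2.17 ± 0.27 (limma adjusted p = 0.0012).

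CRK17 (AT4G23250) had 2049, 2027 and 1989 normalised reads in obe1-2, 1941, 1841 and 1757 in wrky-qm_15_hz and 1967, 1946 and 2138 in wrky-qm, against 846, 819.9 and 834 in Col-0_2 and 1093, 971 and 1058 in Col-0_1. Every mutant library lay above wild type and no pair of mutants was called different, and the log2 fold change in wrky-qm was 1.11 ± 0.05 (limma adjusted p = 1.59e-11). The other members that rose in wrky-qm were CRK2, CRK3, CRK4, CRK9, CRK15, CRK18, CRK19, CRK22, CRK31 and CRK41, with log2 fold changes between 0.26 (CRK22) and 2.03 (CRK41). The call of CRK22 was lost without Col-0_1 replicate 1 and without wrky-qm replicate 2, and that of CRK31 without wrky-qm replicate 3 and without Col-0_2 replicate 2. With only the libraries compared in the fit both calls were lost (0.26 for CRK22 and 1.69 for CRK31), and that of CRK22 also after quantile normalisation (0.17).

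**Figure D3:**
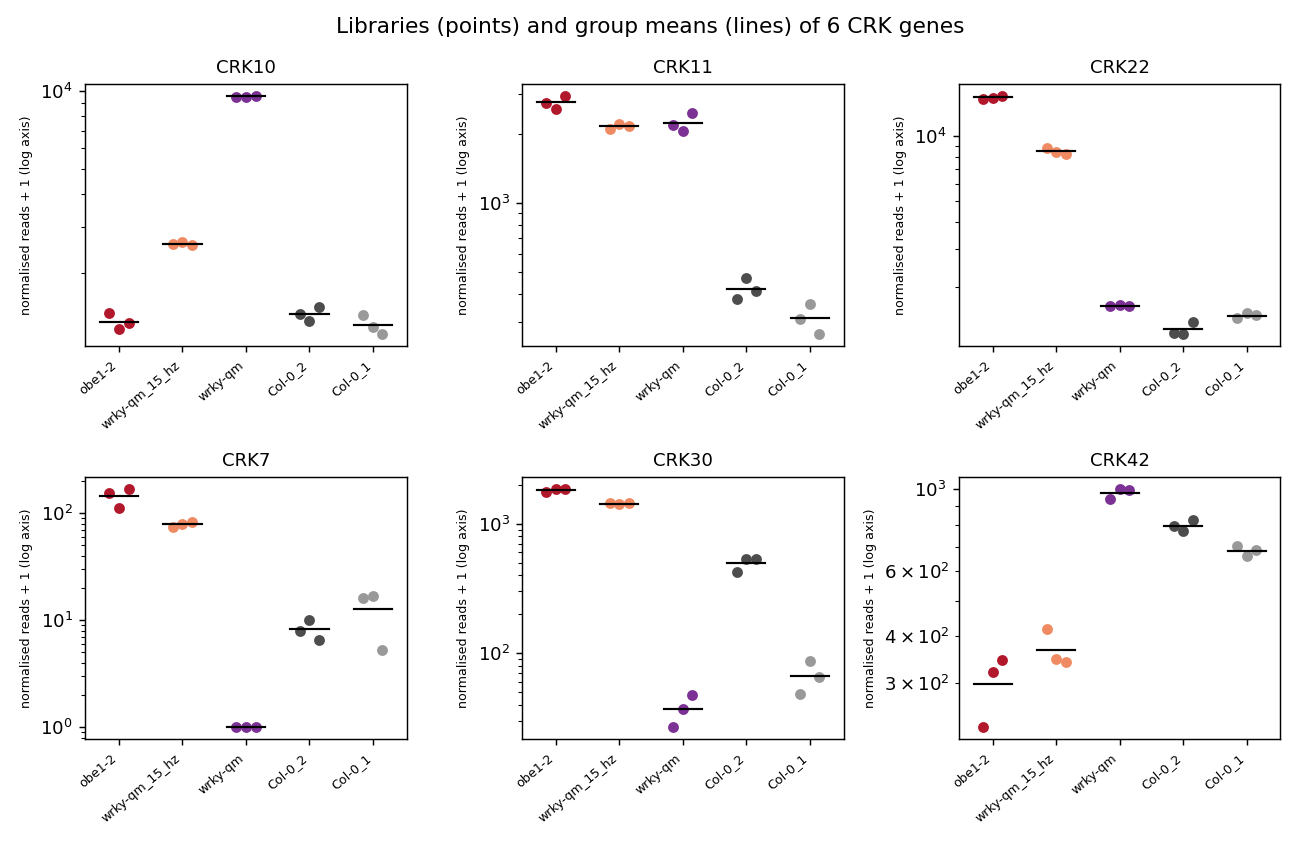
Normalised reads + 1 (log axis) of 6 CRK genes in each library (points) with group means (lines), 3 libraries per group. CRK10 is highest in wrky-qm, CRK7 is listed at 0 there, CRK30 differs between the wild-type sets, and CRK42 is lowest in obe1-2 and wrky-qm_15_hz.

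A group of members fell in wrky-qm and rose in obe1-2 and wrky-qm_15_hz. CRK6 and CRK7 are known for roles in the response to extracellular reactive oxygen species. CRK7 had 153, 111 and 168 normalised reads in obe1-2, 73.3, 77.7 and 82.4 in wrky-qm_15_hz and 0, 0 and 0 in wrky-qm, against 6.99, 9.14 and 5.49 in Col-0_2 and 15.3, 15.9 and 4.29 in Col-0_1. CRK6 (AT4G23140) had 189, 244 and 215 in obe1-2, 151, 185 and 149 in wrky-qm_15_hz and 3.66, 4.10 and 9.72 in wrky-qm, against 38.95, 40.7 and 56.7 in Col-0_2 and 27.6, 29.7 and 17.03 in Col-0_1. For both genes the wild-type libraries lay between the other mutants above and wrky-qm below, with no overlap. The fall of CRK6 in wrky-qm was -2.42 ± 0.29 on the log2 scale (limma adjusted p = 7.73e-05), and that of CRK7, listed at 0 in all 3 wrky-qm libraries, had a limma adjusted p of 1.32e-05. Their rises in obe1-2 were 2.67 ± 0.29 for CRK6 and 3.90 ± 0.38 for CRK7 (limma adjusted p = 5.08e-06 and 2.30e-07).

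CRK37 (AT4G04500) had 59.7, 66.8 and 101 normalised reads in obe1-2, 15.4, 34.3 and 40.8 in wrky-qm_15_hz and 0, 0 and 0 in wrky-qm, against 6.99, 3.06 and 1.78 in Col-0_2 and 12.4, 4.48 and 8.20 in Col-0_1. It was low in wild type, and its call in wrky-qm (limma adjusted p = 0.00235) was lost with a pseudocount of 5. CRK30 (AT4G11460) had 1760.0, 1836 and 1858 in obe1-2, 1436, 1406 and 1444 in wrky-qm_15_hz and 25.8, 35.7 and 46.5 in wrky-qm, against 424, 533 and 531 in Col-0_2 and 47.1, 86.5 and 64.7 in Col-0_1. The Col-0_1 libraries of CRK30 lay just above those of wrky-qm, whereas Col-0_2 lay far above both. Its log2 fold change in wrky-qm was -2.32 ± 0.16 against the mean of both sets (limma adjusted p = 0.00133), -0.85 ± 0.19 against Col-0_1 alone and -3.78 ± 0.19 against Col-0_2 alone. CRK25, the remaining member that fell in wrky-qm, had a log2 fold change of -1.29 ± 0.09 (limma adjusted p = 2.13e-09) and fell in the other mutants too.

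The mutants were then set against each other. In wrky-qm_15_hz against wrky-qm, 29 members were higher and 2 lower, beside 29.5% and 34.9% of all genes tested (64.4% in either direction), with a median log2 difference of 1.59 against -0.07 over all genes. In obe1-2 against wrky-qm, 32 were higher and 2 lower, beside 31.1% and 38.9% (70.0% in either direction), with a median of 2.29 against -0.12. The 2 lower members were CRK10 and CRK42 in both comparisons, which share the wrky-qm libraries. CRK10 differed by -1.88 ± 0.06 in wrky-qm_15_hz and -2.88 ± 0.06 in obe1-2, and CRK42 by -1.42 ± 0.12 and -1.74 ± 0.12 (largest limma adjusted p of these 4 = 1.03e-09).

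Among those higher, CRK22 differed by 2.37 ± 0.05 in wrky-qm_15_hz and 3.19 ± 0.05 in obe1-2, and CRK21 by 1.93 ± 0.05 and 2.75 ± 0.05 (largest limma adjusted p of these 4 = 1.19e-18). CRK5, known both for cell death on overexpression and for abscisic acid responses, had 1744, 1729 and 1805 normalised reads in obe1-2, 1154, 1061 and 1124 in wrky-qm_15_hz and 116, 89.97 and 109 in wrky-qm, against 276, 269.6 and 304 in Col-0_2 and 76.8, 73.6 and 99.1 in Col-0_1. Its wrky-qm libraries overlapped with those of Col-0_1 and lay below all of Col-0_2, and CRK5 was not called in wrky-qm against wild type. The log2 differences from wrky-qm were 4.06 ± 0.12 in obe1-2 and 3.40 ± 0.12 in wrky-qm_15_hz (limma adjusted p = 2.09e-17 and 8.19e-16).

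Since wrky-qm and the other mutants differ in how zeros are stored, that split and the mutant cannot be told apart in these direct comparisons. The effects were therefore also compared with each mutant set against the wild-type set stored alike, a comparison added after the data were seen. For wrky-qm_15_hz less wrky-qm, 28 members had the higher effect and 8 the lower, beside 23.0% and 27.3% of all genes tested. For obe1-2 less wrky-qm, 29 were higher and 6 lower, beside 26.2% and 33.3%. CRK10 differed by -2.03 ± 0.09 and -3.02 ± 0.09, and CRK42 by -1.64 ± 0.17 and -1.97 ± 0.17. CRK14 had the lower effect in both of these, with -1.15 ± 0.22 and -0.79 ± 0.22 (limma adjusted p = 0.000142 and 0.00325), although it was not called between any pair of mutants directly, and CRK12 turned to -0.72 ± 0.24 in wrky-qm_15_hz less wrky-qm.

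Between obe1-2 and wrky-qm_15_hz the differences were smaller. In obe1-2, 19 members were higher and 3 lower, beside 20.3% and 26.1% of all genes tested (46.4% in either direction), with a median log2 difference of 0.59 against -0.03 over all genes. CRK21 and CRK22 were each higher in obe1-2, by 0.82 ± 0.05 and 0.82 ± 0.05, and CRK2 by 0.60 ± 0.05 (largest limma adjusted p of these 3 = 3.68e-09). CRK10 was lower in obe1-2, with -0.996 ± 0.06 (limma adjusted p = 2.71e-11), and so was CRK42, with -0.33 ± 0.12 (limma adjusted p = 0.029), a call for which the libraries overlapped. It was lost without obe1-2 replicate 1 (-0.14), without wrky-qm_15_hz replicate 1 (-0.23), after quantile normalisation (-0.17) and with only the libraries compared in the fit (-0.33). CRK40 (AT4G04570) had 2323, 2446 and 2571 normalised reads in obe1-2, 2932, 3017 and 2971 in wrky-qm_15_hz and 1758, 1544 and 1602 in wrky-qm, against 1706, 1683 and 1828 in Col-0_2 and 900.1, 895 and 1055 in Col-0_1. Its wrky-qm libraries overlapped with those of Col-0_2 and lay above Col-0_1, and obe1-2 was lower than wrky-qm_15_hz, with -0.28 ± 0.06 (limma adjusted p = 0.00115).

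**Figure D4:**
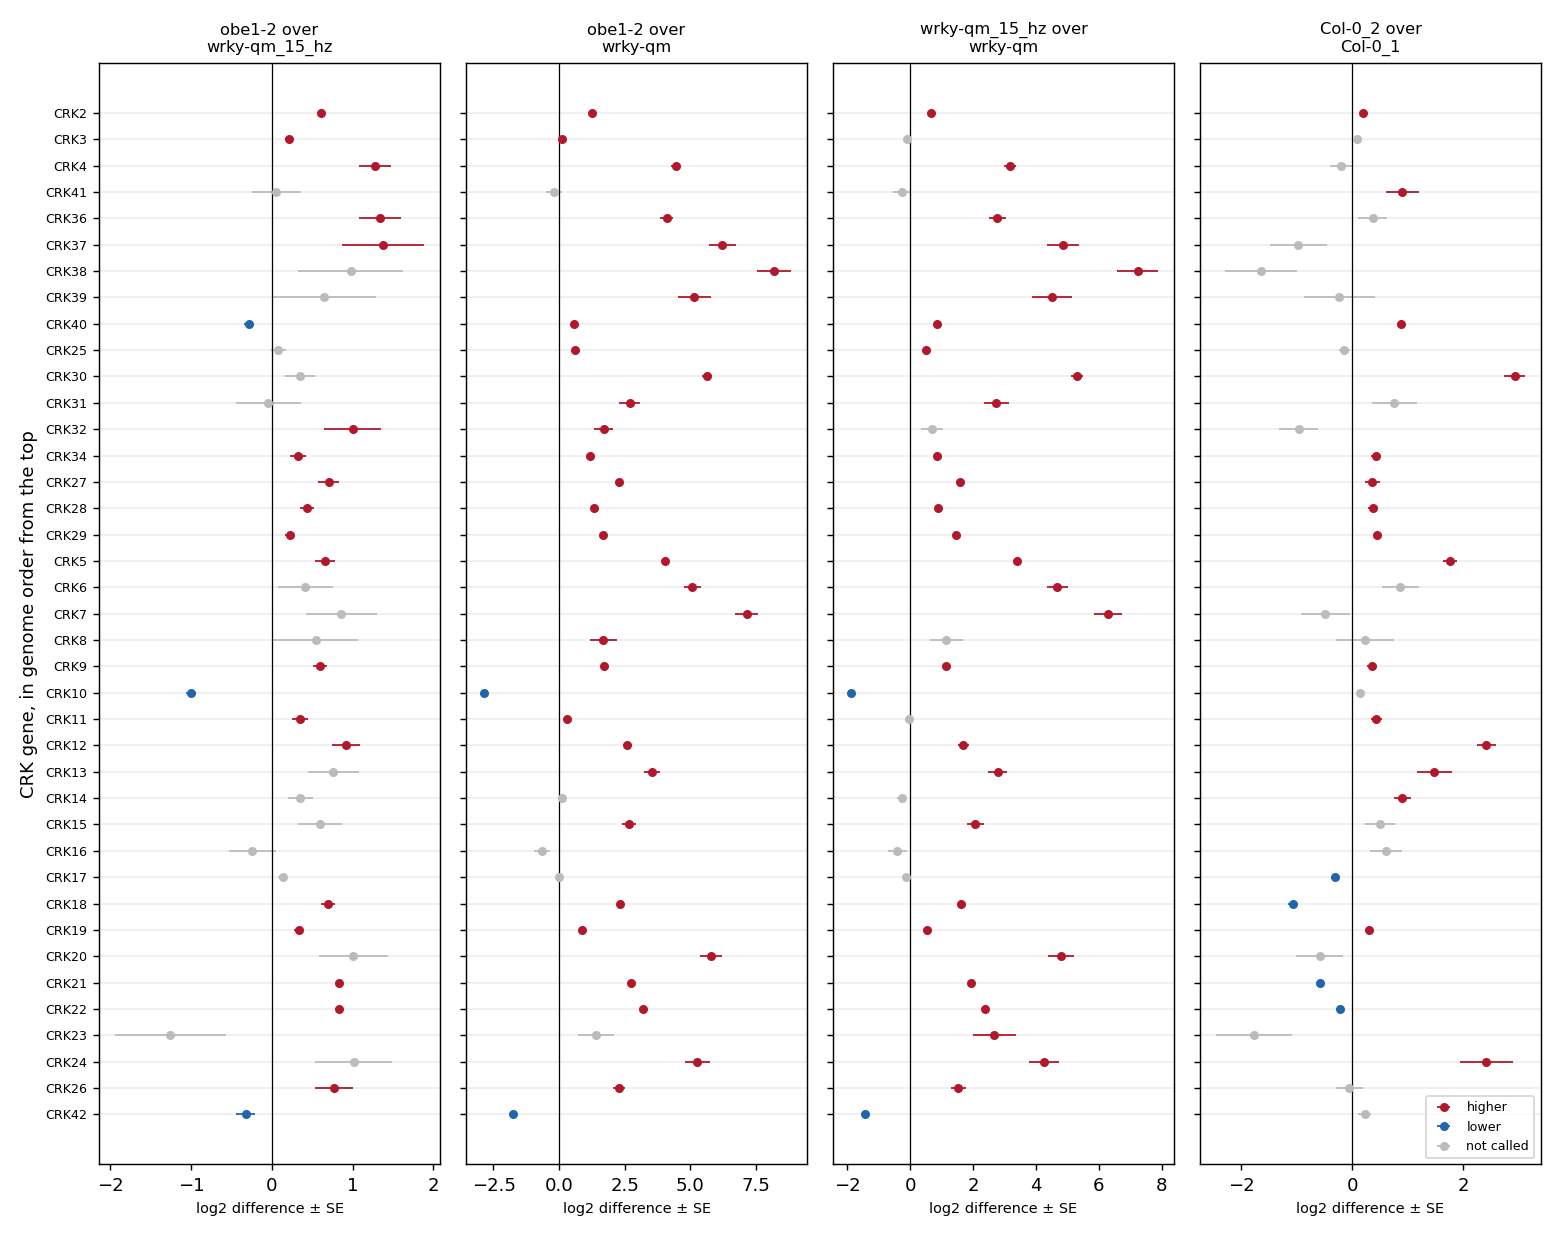
Log2 difference ± SE of the 39 tested CRK genes between obe1-2 and wrky-qm_15_hz, obe1-2 and wrky-qm, wrky-qm_15_hz and wrky-qm, and Col-0_2 and Col-0_1, with the first-named group on top of each difference. CRK10 and CRK42 lie left of 0 in the first 3 panels, and CRK30 and CRK12 lie furthest right between the wild-type sets, with CRK24 beside them. CRK7, CRK37 and CRK38 are listed at 0 in wrky-qm, so their positions against it rest on the pseudocount.

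The wild-type sets were not alike in this family. In Col-0_2, 16 members were higher and 4 lower than in Col-0_1, beside 13.7% and 9.52% of all genes tested (23.2% in either direction), with a median log2 difference of 0.29 against 0 over all genes. CRK30 had the largest difference, 2.92 ± 0.19 (limma adjusted p = 2.22e-10), followed by CRK24 at 2.41 ± 0.48, CRK12 at 2.41 ± 0.17 and CRK5 at 1.77 ± 0.12 (largest limma adjusted p of these 3 = 0.000697). CRK12 (AT4G23200) had 1067, 1143 and 1203 normalised reads in obe1-2, 571, 611 and 627 in wrky-qm_15_hz and 182, 242 and 145 in wrky-qm, against 167, 185 and 171 in Col-0_2 and 26.5, 40.9 and 29.998 in Col-0_1. The wrky-qm libraries of CRK12 lay around those of Col-0_2, so it was called against Col-0_1 alone (2.502 ± 0.17) and not against both. Lower in Col-0_2 were CRK18 with -1.07 ± 0.09, CRK21 with -0.57 ± 0.05 and CRK17 with -0.32 ± 0.06 (largest limma adjusted p of these 3 = 0.000258). Touch and handling transcripts also differed between the sets, all 3 genes being higher in Col-0_2. Their sums were 3941 to 4211 in Col-0_2 and 1408 to 1487 in Col-0_1, and their part in the CRK differences was not tested. Col-0_2 and Col-0_1 also differ in how zeros are stored, and that split cannot be told apart from a difference between the seedlings.

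Most members lie in a few stretches of chromosome 4, which carries 36 of the 41. With at most 5 other genes between neighbours, 5 blocks were found. The CRK5 block holds the 20 genes from CRK5 to CRK24, the CRK36 block runs from CRK36 to CRK40 and the CRK30 block from CRK30 to CRK34, and there are pairs of CRK28 with CRK29 and, on chromosome 1, of CRK2 with CRK3. The other 7 members are dispersed. For the counts in and around the blocks, 29.2% of all genes tested rose and 32.5% fell in obe1-2, 26.5% rose and 27.4% fell in wrky-qm_15_hz, and 15.5% rose and 11.4% fell in wrky-qm. In the CRK5 block 16 members rose and 1 fell in obe1-2, 17 rose in wrky-qm_15_hz, and 10 rose and 2 fell in wrky-qm. The CRK36 block rose in 5 of 5 members in obe1-2 and in wrky-qm_15_hz, while in wrky-qm none rose and CRK37 fell. In the CRK30 block 4 of 4 tested members rose in obe1-2 and in wrky-qm_15_hz, and in wrky-qm CRK31 rose and CRK30 fell.

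The genes just outside the blocks were counted in the same way. Of the 50 genes within 5 places of a block, 31 were tested, and 6 rose and 11 fell in obe1-2, 6 rose and 10 fell in wrky-qm_15_hz, and 6 rose and 2 fell in wrky-qm. The share that rose was 19.4% in each mutant, beside 29.2%, 26.5% and 15.5% of all genes tested in obe1-2, wrky-qm_15_hz and wrky-qm. The shares that fell were 35.5%, 32.3% and 6.45%, beside 32.5%, 27.4% and 11.4%. In obe1-2 and wrky-qm_15_hz the share that rose thus lay below that of all genes, with 31 flanking genes tested. Within the CRK5 block neighbours did not all move alike. In wrky-qm the run from CRK9 to CRK15 held 6 of the 10 rises, CRK12 not being called, while CRK6 and CRK7 at its upstream end fell and CRK20 to CRK24 held 1 call, that of CRK22. In obe1-2 CRK10 was not called, between CRK9 (2.41 ± 0.08) and CRK11 (2.94 ± 0.08), both of which rose.

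**Figure D5:**
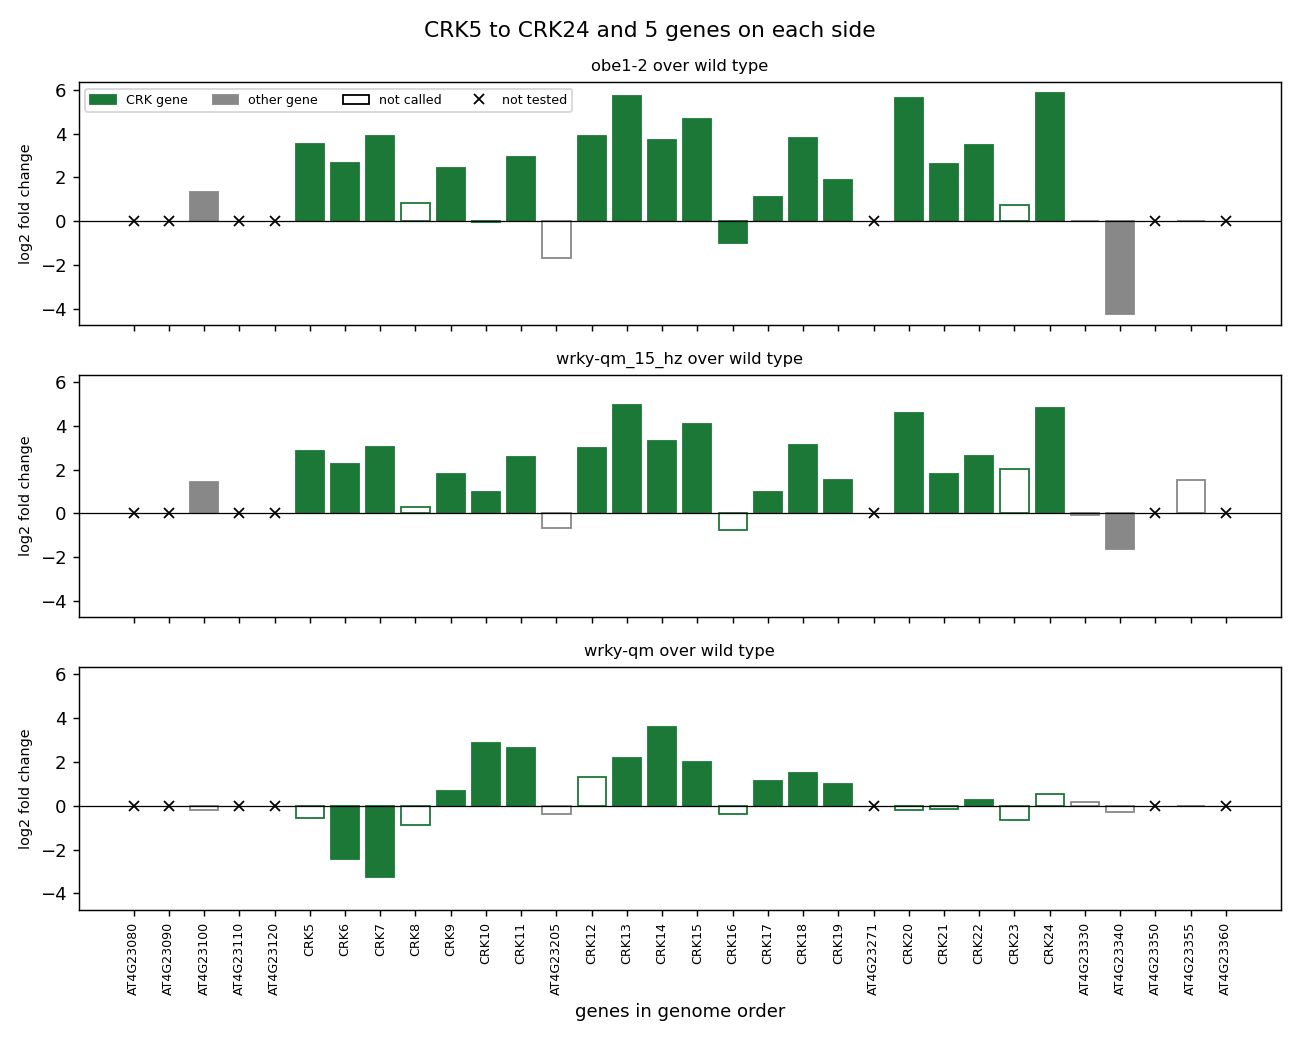
Log2 fold change over the mean of Col-0_2 and Col-0_1 for CRK5 to CRK24 and the 5 annotated genes on each side, in genome order, in obe1-2, wrky-qm_15_hz and wrky-qm. Filled bars passed the test, open bars did not, and crosses mark genes not tested, with 16, 17 and 10 of the 20 CRK genes risen. The wrky-qm bar of CRK7, listed at 0 there, rests on the pseudocount.

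The remaining members are given as group means ± SD of 3 libraries. CRK29, the abundant neighbour of CRK28, averaged 5677 ± 224 normalised reads in obe1-2, 4879 ± 346 in wrky-qm_15_hz and 1772 ± 24.1 in wrky-qm, against 1785 ± 62.97 in Col-0_2 and 1310.0 ± 96.1 in Col-0_1. CRK15 of the CRK5 block averaged 700.3 ± 98.4 normalised reads in obe1-2, 462 ± 41.7 in wrky-qm_15_hz and 109 ± 10.9 in wrky-qm, against 32.9 ± 12.1 in Col-0_2 and 22.9 ± 8.999 in Col-0_1, and it rose in all 3 mutants. CRK41 averaged 363 ± 45.4 normalised reads in obe1-2, 348 ± 22.7 in wrky-qm_15_hz and 417 ± 43.1 in wrky-qm, against 139 ± 3.95 in Col-0_2 and 85.7 ± 48.8 in Col-0_1, with log2 fold changes of 1.82 ± 0.26 in obe1-2, 1.77 ± 0.26 in wrky-qm_15_hz and 2.03 ± 0.26 in wrky-qm.

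Others rose in obe1-2 and wrky-qm_15_hz without a call in wrky-qm. CRK27 averaged 1074 ± 115 normalised reads in obe1-2, 659 ± 56.4 in wrky-qm_15_hz and 220.2 ± 39.6 in wrky-qm, against 315 ± 18.8 in Col-0_2 and 245 ± 28.2 in Col-0_1. CRK34 averaged 951 ± 75.3 normalised reads in obe1-2, 764 ± 91.4 in wrky-qm_15_hz and 419 ± 9.60 in wrky-qm, against 431 ± 35.4 in Col-0_2 and 319.8 ± 18.2 in Col-0_1. CRK26 averaged 479.8 ± 78.01 normalised reads in obe1-2, 280.0 ± 33.3 in wrky-qm_15_hz and 96.9 ± 14.9 in wrky-qm, against 82.9 ± 35.2 in Col-0_2 and 80.7 ± 2.87 in Col-0_1. In these 3 genes wrky-qm stood near wild type, and their log2 fold changes in obe1-2 were 1.95 ± 0.11 for CRK27, 1.36 ± 0.08 for CRK34 and 2.57 ± 0.21 for CRK26 (largest limma adjusted p of these 3 = 5.28e-09).

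Among the low members, CRK31 averaged 142 ± 13.3 normalised reads in obe1-2, 148 ± 28.98 in wrky-qm_15_hz and 21.04 ± 1.95 in wrky-qm, against 9.08 ± 5.27 in Col-0_2 and 4.33 ± 1.09 in Col-0_1, and it also rose in wrky-qm. CRK32 averaged 102 ± 9.63 normalised reads in obe1-2, 50.9 ± 8.04 in wrky-qm_15_hz and 31.2 ± 8.27 in wrky-qm, against 12.5 ± 5.03 in Col-0_2 and 24.7 ± 7.67 in Col-0_1. CRK39 averaged 44.1 ± 6.66 normalised reads in obe1-2, 28.6 ± 10.04 in wrky-qm_15_hz and 0.317 ± 0.547 in wrky-qm, against 1.63 ± 1.53 in Col-0_2 and 2.49 ± 2.90 in Col-0_1, so wild type and wrky-qm were close to 0. CRK8 averaged 38.02 ± 12.8 normalised reads in obe1-2, 28.3 ± 18.05 in wrky-qm_15_hz and 13.1 ± 10.9 in wrky-qm, against 22.97 ± 9.19 in Col-0_2 and 18.9 ± 4.98 in Col-0_1, and CRK23 stayed under 20 in each group mean, at 6.83 ± 2.26 normalised reads in obe1-2, 17.8 ± 5.60 in wrky-qm_15_hz and 2.98 ± 3.69 in wrky-qm, against 1.96 ± 2.03 in Col-0_2 and 7.74 ± 3.40 in Col-0_1. Neither CRK8 nor CRK23 was called in any mutant against both wild-type sets. Against Col-0_2 alone CRK23 was higher, with 2.90 ± 0.69 in wrky-qm_15_hz and 1.64 ± 0.69 in obe1-2 (limma adjusted p = 0.000989 and 0.0398). Its wrky-qm_15_hz libraries lay only just above all 6 wild-type libraries, the lowest at 11.29 and the highest of Col-0_1 at 11.22. In wrky-qm_15_hz against Col-0_1 alone CRK23 was not called (1.13 ± 0.69, limma adjusted p = 0.158).

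Some members are grouped here by their known roles. CRK2, CRK28 and CRK36 are known to act with immune receptor complexes and the oxidative burst. CRK28 (AT4G21400), which associates with the co-receptor BAK1, rose by 1.75 ± 0.08 in obe1-2 and 1.32 ± 0.08 in wrky-qm_15_hz and did not pass in wrky-qm (0.43 ± 0.08, limma adjusted p = 0.0527). CRK36 (AT4G04490), known to act with the flagellin receptor FLS2 and the kinase BIK1 and in abscisic acid responses, rose by 4.99 ± 0.22 in obe1-2 and 3.65 ± 0.22 in wrky-qm_15_hz and did not pass in wrky-qm (0.88 ± 0.22, limma adjusted p = 0.0528). Of CRK4, CRK5, CRK19 and CRK20, members known for inducing cell death on overexpression, all 4 rose in obe1-2 and in wrky-qm_15_hz, and in wrky-qm CRK4 and CRK19 rose. Of all 39 tested members, 84.6%, 87.2% and 38.5% rose in obe1-2, wrky-qm_15_hz and wrky-qm, so these counts lay near those of the family. CRK20 (AT4G23280) averaged 447 ± 62.5 normalised reads in obe1-2, 223 ± 41.6 in wrky-qm_15_hz and 7.85 ± 4.90 in wrky-qm, against 7.25 ± 4.03 in Col-0_2 and 10.2 ± 1.504 in Col-0_1 (SD, n = 3 each). Its wrky-qm level was close to wild type, and its log2 fold change was 5.62 ± 0.37 in obe1-2 (limma adjusted p = 4.04e-10). CRK9 (AT4G23170), which is short and in which no kinase triplet was found, rose by 2.41 ± 0.08, 1.81 ± 0.08 and 0.69 ± 0.08 in obe1-2, wrky-qm_15_hz and wrky-qm (largest limma adjusted p of these 3 = 9.46e-05).

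The receptor and oxidative burst genes around the CRKs, a list of 18, rose in 17 cases in obe1-2, 16 in wrky-qm_15_hz and 14 in wrky-qm and fell in none, with median log2 fold changes of 1.11, 1.14 and 0.59. Of all genes tested, 29.2%, 26.5% and 15.5% rose in these mutants, with medians of -0.08, -0.04 and 0. RBOHD, the NADPH oxidase of the immune oxidative burst, averaged 12236 ± 474 normalised reads in obe1-2, 12295 ± 461 in wrky-qm_15_hz and 9078 ± 163 in wrky-qm, against 3620.4 ± 72.6 in Col-0_2 and 2753 ± 144 in Col-0_1. SOBIR1, an adaptor kinase of receptor-like proteins, rose by 2.33 ± 0.04, 2.24 ± 0.04 and 1.84 ± 0.04 in the same mutants (largest limma adjusted p of these 3 = 4.89e-17). FRK1, a receptor-like kinase used as a marker of pattern-triggered immunity, averaged 10597 ± 519 in obe1-2, 5089.9 ± 287 in wrky-qm_15_hz and 109 ± 7.32 in wrky-qm, against 48.5 ± 21.7 in Col-0_2 and 24.2 ± 5.90 in Col-0_1. CPK28, a calcium-dependent kinase that limits immune signalling, rose in each mutant, with 0.88 ± 0.04 in obe1-2, 1.52 ± 0.04 in wrky-qm_15_hz and 2.48 ± 0.04 in wrky-qm (largest limma adjusted p of these 3 = 1.95e-11).

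Salicylic acid genes, a list of 17, rose in 14 cases in obe1-2, in 13 with 1 fall in wrky-qm_15_hz, and in 8 with 6 falls in wrky-qm, with median log2 fold changes of 1.43, 0.99 and 0.33. Falls made up 32.5%, 27.4% and 11.4% of all genes tested in the same mutants, and rises 29.2%, 26.5% and 15.5%. CBP60G, a transcription factor of salicylic acid synthesis, rose by 4.16 ± 0.06, 4.16 ± 0.06 and 2.41 ± 0.06 in obe1-2, wrky-qm_15_hz and wrky-qm (largest limma adjusted p of these 3 = 4.58e-14). The next 2 genes were chosen after their values were seen. PR2, a glucanase induced by salicylic acid, averaged 1163 ± 35.5 normalised reads in obe1-2, 959.9 ± 82.9 in wrky-qm_15_hz and 29.2 ± 5.46 in wrky-qm, against 112 ± 3.46 in Col-0_2 and 365 ± 63.3 in Col-0_1. PR1, a secreted protein used as a marker of salicylic acid responses, averaged 28899 ± 842 in obe1-2, 4210.0 ± 298 in wrky-qm_15_hz and 1.92 ± 3.31 in wrky-qm, against 59.9 ± 27.7 in Col-0_2 and 93.1 ± 16.3 in Col-0_1. Both fell in wrky-qm and rose in the other mutants, as CRK6 and CRK30 did, PR2 with a log2 fold change of -2.76 ± 0.13 in wrky-qm (limma adjusted p = 1.08e-09).

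Other proteins with DUF26 domains were counted for comparison. Of the 8 plasmodesmata-located proteins, which carry DUF26 domains without a kinase, 2 rose and 5 fell in obe1-2, 1 rose and 5 fell in wrky-qm_15_hz, and 3 fell in wrky-qm, with median log2 fold changes of -1.42, -0.94 and -0.49. Of all genes tested, 32.5%, 27.4% and 11.4% fell in obe1-2, wrky-qm_15_hz and wrky-qm. PDLP6 fell in all 3 mutants, with -2.68 ± 0.13 in obe1-2, -1.53 ± 0.13 in wrky-qm_15_hz and -0.56 ± 0.13 in wrky-qm (largest limma adjusted p of these 3 = 0.00867). Of CRK43 to CRK46, related kinases outside the 41, 3 rose in obe1-2, 2 in wrky-qm_15_hz and 1 in wrky-qm, and none fell, beside 29.2%, 26.5% and 15.5% of all genes that rose. CRK45 averaged 1713 ± 81.2 normalised reads in obe1-2, 855 ± 38.6 in wrky-qm_15_hz and 79.7 ± 15.9 in wrky-qm, against 153 ± 11.1 in Col-0_2 and 57.5 ± 15.5 in Col-0_1 (SD, n = 3 each). It rose in obe1-2 and wrky-qm_15_hz and was not called in wrky-qm (-0.24 ± 0.15).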

How the data were processed

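RNA of 15 seedling libraries, 3 in each of 5 groups, was sequenced on a NovaSeq 6000 with paired 150-base reads, per the labels' protocols. The deposited values are a signal that the authors made per gene, on the scale of read numbers but not whole, and their exact scaling is not stated. Tools named per the submitters' processing notes are bcl2fastq, HISAT2 and edgeR, with the genome TAIR10; their versions and the strand setting are not given in the sources used here. Each obe1-2 library listed 9106 genes at 0 and each wrky-qm_15_hz library 8431, and whether a step joined the libraries of a group, narrowing their spread, was not tested.

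Values below 1e-06 were set to 0. Genes whose mean reached 1 in any group were tested with limma 3.58.1 (trend) in R 4.3.3 on log2(value + 1), all 15 libraries in 1 fit, Benjamini-Hochberg adjusted over 25085 genes, threshold 0.05. A change against wild type had to pass in the same direction against both sets, with the larger p kept. A count test planned for raw counts was not run, since the values are not counts. The steps were tested on simulated data. Alternatives were 2 other pseudocounts, 2 other filters, quantile normalisation, a replicate block, only the libraries compared, each wild-type set alone or their mean, and leaving out each library.

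The members and gene lists were chosen with earlier results of these data known. Values in every library are given for 25 members, namely the 4 largest changed rises and falls per mutant, the 3 smallest adjusted p per direction in each other pair of groups, the 3 most abundant members and those not tested or listed at 0 in a whole group. From each other gene list at most 4 genes were named, with changed genes of smallest p as the rule. PR1 and PR2 were instead chosen after their values were seen, and PLT2 and SAG12 are given for their values at 0. Names, positions and promoters come from RefSeq TAIR10.1, matched by locus; near-identical stretches were found with blastn 2.17.0.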

Additional observations from a re-analysis of the deposited data

Results flagged for a closer look

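CRK6, CRK7, CRK30 and CRK37 fell in wrky-qm and rose in both other mutants against the same wild-type sets. They were picked for these opposite calls and for a called difference between the mutants in the same limma fit. The adjusted p-values below were therefore bound to pass and give no separate support. CRK6 was higher by 5.09 ± 0.34 on the log2 scale in obe1-2 than in wrky-qm and by 4.67 ± 0.34 in wrky-qm_15_hz (limma adjusted p = 1.34e-11 and 9.06e-11). CRK30 was higher by 5.66 ± 0.19 in obe1-2 and by 5.31 ± 0.19 in wrky-qm_15_hz (limma adjusted p = 1.07e-16 and 6.07e-16). CRK7 averaged 143.9 normalised reads in obe1-2 and 77.8 in wrky-qm_15_hz and was listed at 0 in wrky-qm (limma adjusted p = 4.09e-12 and 5.80e-11). CRK37 averaged 75.9 in obe1-2 and 30.1 in wrky-qm_15_hz and was listed at 0 in wrky-qm (limma adjusted p = 4.99e-10 and 3.82e-08). The storage of zeros differs between wrky-qm and the other mutants, and its part in these differences cannot be told apart from the genotype in the direct comparison. With each mutant set against the wild-type set stored alike, CRK6 differed by 4.22 ± 0.48 for obe1-2 and 3.81 ± 0.48 for wrky-qm_15_hz, and CRK30 by 2.73 ± 0.27 and 2.39 ± 0.27. The sign of these differences was also set by the selection.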

How the results depend on the processing

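Over all alternatives apart from leaving out libraries, 35 to 37 members were called in obe1-2 and 36 to 38 in wrky-qm_15_hz against both wild-type sets. For wrky-qm the count was 19 to 31, the highest being against Col-0_1 alone (31 members, 24 higher and 7 lower). Between groups it was 31 to 36 for wrky-qm_15_hz against wrky-qm, 33 to 36 for obe1-2 against wrky-qm, 21 to 30 for obe1-2 against wrky-qm_15_hz and 19 to 22 for Col-0_2 against Col-0_1. Leaving out each library in turn gave 35 to 36 members in obe1-2, 35 to 36 in wrky-qm_15_hz, 19 to 22 in wrky-qm, 31 to 32 for wrky-qm_15_hz against wrky-qm, 32 to 34 for obe1-2 against wrky-qm, 19 to 22 for obe1-2 against wrky-qm_15_hz and 19 to 21 between the wild-type sets. Of 2340 single-member values outside those left-out libraries, 2231 kept their side of the threshold, and 16 lost and 86 gained a call. The other 7 changed sign with a call in either fit. Changes of sign where neither fit made a call are counted among the 2231. In wrky-qm, CRK5 came to 0.34 against Col-0_1 alone and CRK21 to 0.14 against Col-0_2 alone. With each mutant set against the wild-type set stored alike, CRK12 came to -0.72 and CRK40 to -0.011 for wrky-qm_15_hz less wrky-qm, and CRK11 came to -0.13, CRK14 to -0.79 and CRK40 to -0.29 for obe1-2 less wrky-qm. The wild-type set accounts for these by construction. With the replicate number as a block (replicate block), the counts were 36 in obe1-2, 36 in wrky-qm_15_hz, 20 in wrky-qm, 32, 36 and 23 for wrky-qm_15_hz against wrky-qm, obe1-2 against wrky-qm and obe1-2 against wrky-qm_15_hz, and 20 between the wild-type sets. The numbers did not pair the libraries, since deviations of same-numbered libraries correlated between -0.11 and 0.08 over 30 pairs. The edgeR test planned for raw counts was not run, as the values are not counts. The number of reads behind each value is unknown, so no counting interval is given, and low members such as CRK8, CRK23 and CRK39 are limited most. The smallest calls, of CRK16 in obe1-2, CRK22 and CRK31 in wrky-qm and CRK32 in wrky-qm_15_hz, were lost without single libraries; in obe1-2 against wrky-qm so were those of CRK3, CRK8 and CRK11, against wrky-qm_15_hz those of CRK26, CRK32, CRK34, CRK37 and CRK42, and between the wild-type sets those of CRK2, CRK27 and CRK41. Under the other settings against wild type, calls of CRK16 (obe1-2), CRK22, CRK31 and CRK37 (wrky-qm) were lost. Between groups, CRK3 and CRK11 were lost after quantile normalisation (0.0036 and 0.20) and CRK3, CRK8 and CRK12 with wild-type sets stored alike, for obe1-2 against wrky-qm. For obe1-2 against wrky-qm_15_hz, CRK42 and, with a pseudocount of 0.5, CRK37 (1.39) were lost, and between the wild-type sets CRK27 was lost with no filter or the replicate block (0.36 in both).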
